A study of Mus musculus with 24 samples.

Results

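The miR-29 family is a group of small RNAs made from 2 pairs of neighbouring genes, and 4 of its mature strands were followed here through the mouse liver lobule. They were chosen by name, mmu-miR-29a-3p, mmu-miR-29b-3p, mmu-miR-29c-3p and mmu-miR-29c-5p (written without mmu, for mouse, from here on), and are 4 of the 1881 mouse miRNAs on the array. All 4 were among the 339 miRNAs detected on at least 6 of the 24 arrays, the set on which the main tests of single miRNAs were fitted.

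The samples were tetraploid (4n) hepatocytes of 3 male C57BL/6J mice aged 3 months, fed freely, kept on a reversed light cycle and given no treatment. Liver cells were freed by liberase perfusion, cells that were dead or positive for CD45 or CD31 were removed, and 50000 cells were collected for each population. From each mouse 8 populations were sorted by 2 surface proteins, from zone 1 (pericentral, high CD73) to zone 8 (periportal, high E-cadherin), so that each zone had 3 arrays, 1 per mouse. The zones are therefore a sort by surface protein, which stands in for position, and not a measured distance.

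Blood enters the lobule at the portal vein and leaves at the central vein, and hepatocytes along this path divide metabolic work between them. MicroRNAs pair with messenger RNAs chiefly through the seed, the bases near their 5′ end, and lower the translation or stability of those messengers. The miR-29 family is known for targeting messengers of collagens and other matrix proteins, of DNA methyltransferases and of insulin signalling proteins. In liver it is best known from fibrosis, in which its level falls in stellate cells, and from hepatic glucose and lipid metabolism.

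The mature sequences show what the members share and where they part, and are printed 5′ to 3′ from RefSeq (mouse build GRCm38.p6) with the seed, bases 2 to 8, in capitals:
miR-29a-3p: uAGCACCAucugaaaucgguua
miR-29b-3p: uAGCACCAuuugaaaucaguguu
miR-29c-3p: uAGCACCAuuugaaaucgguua
miR-29c-5p: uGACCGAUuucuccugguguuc

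The 3p strands all carry 1 seed, AGCACCA, which no other of the 1608 array miRNAs with a sequence in the table held. The seed of miR-29c-5p, GACCGAU, was held by that strand alone. Counted from the 5′ end of the first-named strand, miR-29a-3p and miR-29c-3p differed by the single substitution C10U, with 21 of 22 positions the same. miR-29a-3p differed from miR-29b-3p by C10U, G18A, U21G and A22U, and miR-29b-3p from miR-29c-3p by A18G, G21U and U22A. How far a probe for 1 of these strands also binds another was not measured in these files, so each signal is that of its probe. The last 6 bases of miR-29b-3p, AGUGUU, are known in human cells as an element that carries the miRNA into the nucleus. On the mature strand these letters occurred in 12 of the 1608 sequences (0.746%) and ended 2 of them, miR-29b-3p and miR-92b-5p.

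The genes form 2 clusters. Mir29a lies at chr6:31062660-31062747 and Mir29b-1 at chr6:31063023-31063093, both on the minus strand and 275 bases apart, and neither overlapped another gene in the RefSeq table. Mir29b-2 lies at chr1:195037040-195037120 and Mir29c at chr1:195037547-195037634, both on the plus strand, 426 bases apart and within the span of the long noncoding RNA gene A330023F24Rik (chr1:195017399-195037908). The table gives no exons, so whether they are exonic or intronic was not read. Both Mir29b-1 and Mir29b-2 give the same miR-29b-3p, whose signal cannot be divided between the clusters. The hairpins of the 2 genes whose 3p strand comes from no other gene are shown with the 5p and 3p strands in capitals:
Mir29a: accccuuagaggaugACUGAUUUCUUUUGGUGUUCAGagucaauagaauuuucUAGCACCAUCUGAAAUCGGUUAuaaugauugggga
Mir29c: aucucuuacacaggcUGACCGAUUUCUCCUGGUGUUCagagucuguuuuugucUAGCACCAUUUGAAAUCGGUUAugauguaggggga

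Detection separated the strands. miR-29a-3p, miR-29b-3p and miR-29c-3p were detected on 24 of 24 arrays, and the scanner software's own error was 7.67 to 7.80%, 8.63 to 8.86% and 7.09 to 7.14% of the signal over these arrays. miR-29c-5p, the opposite strand of the Mir29c hairpin, was detected on 15 of 24 arrays, with an error of 22.8 to 32.0% of the signal. The opposite strands of the other hairpins, miR-29a-5p, miR-29b-1-5p and miR-29b-2-5p, were detected on 0 of 24 arrays.

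Summed signal over all miRNAs was 57935 to 138301 per array, and 248 to 368 miRNAs were detected per array. To scale the arrays, the 75th percentile was taken on each of them across the 198 miRNAs that every array detected, and signals below are in these scaled units, or on their log2 scale. That percentile spanned 54.5 to 96.1 in zones 5 to 8, against 52.3 to 92.1 in zones 1 to 4. Each mouse filled 1 slide, and zones 1 to 4 and zones 5 to 8 filled its 2 rows, so mouse and slide, and side of the lobule and slide row, cannot be told apart. The hepatocyte markers miR-122-5p, miR-122-3p, miR-192-5p and miR-194-5p were detected on all arrays. Of other cells' markers, 0 of 9 for stellate cells and fibroblasts, 0 of 7 for leukocytes and Kupffer cells, 0 of 4 for erythroid cells, 1 of 5 for biliary epithelium and 1 of 5 for endothelium were detected on any array. The biliary marker was detected on 1 array. The endothelial marker, miR-126a-3p, was detected on 16 arrays, 9 of zones 5 to 8 and 7 of zones 1 to 4. Its signal reached at most 11.4 in zones 5 to 8 and 11.03 in zones 1 to 4. In these bulk populations fewer cells of a type and less RNA per cell cannot be told apart.

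In mouse 1, miR-29a-3p had scaled signals of 740, 537, 546, 584, 745, 828, 824 and 760 in zones 1 to 8. In mouse 2 its signals were 505, 653, 646, 472, 680, 684, 742 and 746. In mouse 3 they were 745, 729, 739, 676, 613, 717, 859 and 870. In every mouse the 2 highest zones lay between zones 6 and 8, while zone 1 of mouse 3 was above its zones 5 and 6 and zone 1 of mouse 1 was just under its zone 5. Its log2 signal averaged 9.35 ± 0.32, 9.16 ± 0.26, 9.66 ± 0.11 and 9.63 ± 0.12 (SD over 3 mice) in zones 1, 4, 7 and 8.

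In mouse 1, miR-29b-3p had scaled signals of 267, 210, 194, 209, 237, 257, 265 and 231 in zones 1 to 8. In mouse 2 they were 155, 188, 182, 137, 202, 233, 248 and 253. In mouse 3 they were 298, 279, 290, 258, 207, 232, 282 and 278. The pericentral zones of mouse 2 were the lowest and those of mouse 3 the highest, and the mice lay close together in zones 5 to 8. The SD over mice of the log2 signal was 0.08 to 0.13 in zones 5 to 8, against 0.29 to 0.50 in zones 1 to 4.

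In mouse 1, miR-29c-3p had scaled signals of 404, 280, 307, 330, 360, 390, 377 and 336 in zones 1 to 8. In mouse 2 they were 243, 327, 330, 249, 344, 350, 356 and 358. In mouse 3 they were 395, 375, 392, 360, 297, 325, 390 and 383. Its zone means spanned 8.27 ± 0.28 in zone 4 to 8.55 ± 0.07 in zone 7 on the log2 scale (SD, n = 3 each). In the order of zone means all of the 3p strands had zone 4 lowest and zone 7 highest, and no neighbours in that order differed by more than the larger of their SDs.

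**Figure D1:**
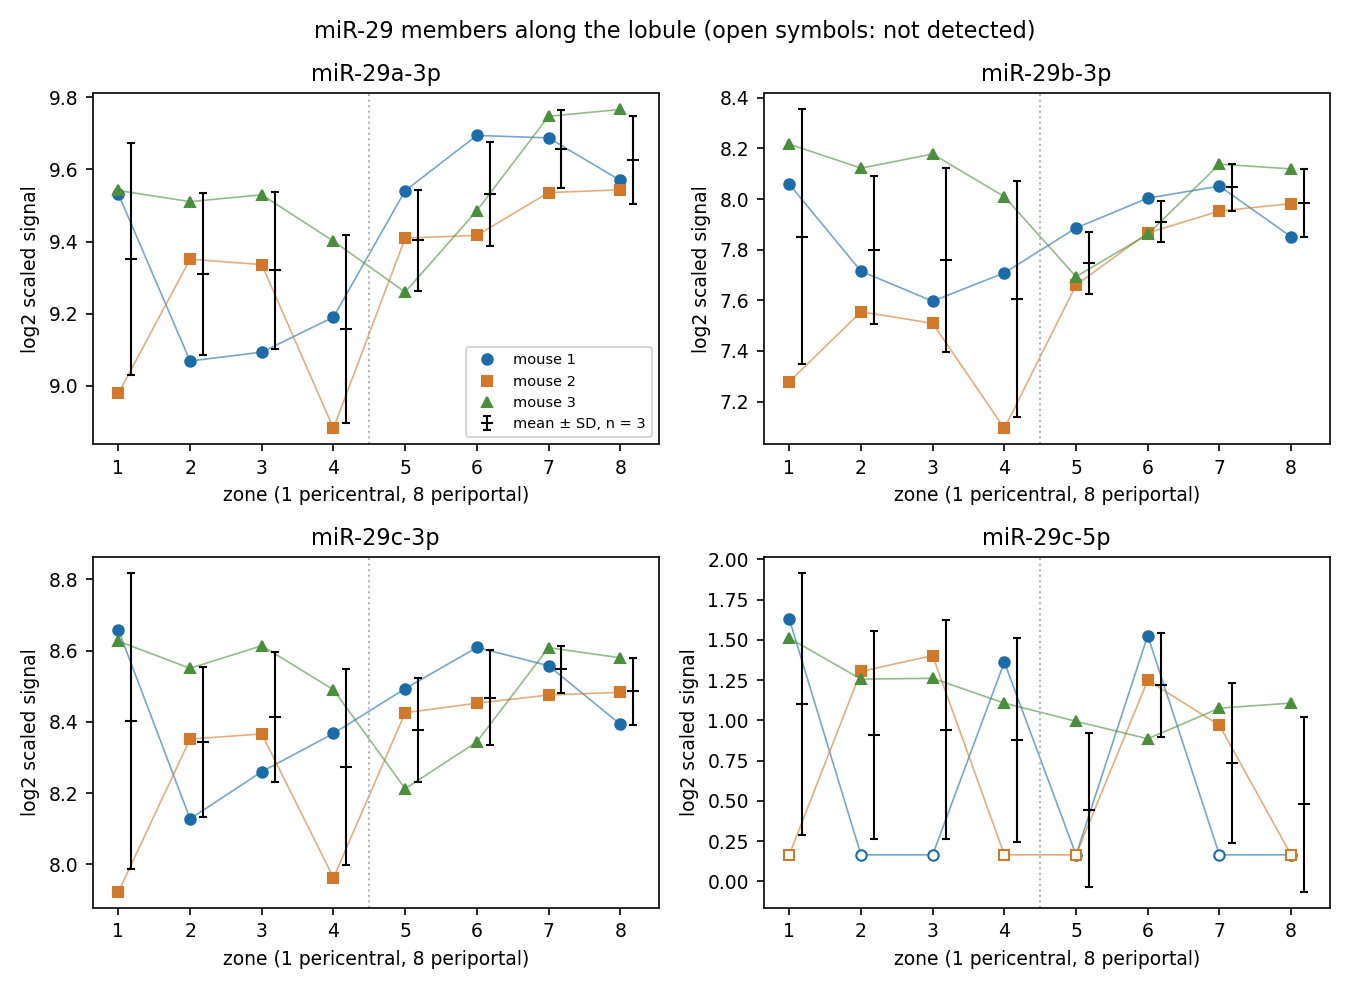
Log2 scaled signal (vertical axis) of the 4 members in zones 1 to 8 (horizontal axis), with 1 symbol per mouse and black bars for the mean ± SD of 3 mice. Open symbols are arrays without detection, and the dotted line marks the change of slide row between zones 4 and 5. The mean of each 3p strand is lowest at zone 4, though single mice differ in their lowest zone, and miR-29c-5p lies at the floor on 9 arrays.

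Where detected, miR-29c-5p had scaled signals of 3.10, 2.57 and 2.88 in zones 1, 4 and 6 of mouse 1. In mouse 2 it had 2.47, 2.64, 2.38 and 1.96 in zones 2, 3, 6 and 7. In mouse 3 it had 2.85, 2.39, 2.40, 2.15, 1.99, 1.85, 2.11 and 2.16 in zones 1 to 8. Detection held for 7 of the 12 periportal arrays (zones 5 to 8), against 8 of the 12 pericentral ones (zones 1 to 4). Arrays with detection were brighter at the median: the 75th percentile had a median of 74.8 on the 15 arrays with detection and 57.8 on the 9 without, with overlapping ranges. The part of array brightness in its pattern over zones was not tested.

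The first comparison asked whether a member's signal changed steadily along the lobule. No member passed the test without the animal as a block: 0 of 4 were called, against 16.8% of the 339 tested miRNAs (limma, adjusted p under 0.05). miR-29a-3p had a slope of 0.054 ± 0.020 log2 units per zone (SE), a fitted change of 0.38 over the axis, with a limma adjusted p = 0.0593. With the mouse as a block miR-29a-3p rose toward the portal side (limma adjusted p = 0.0273), so that 1 of 4 members was called, against 31% of all miRNAs. The slope was 0.033 ± 0.026 for miR-29b-3p (limma adjusted p = 0.414) and 0.022 ± 0.019 for miR-29c-3p (limma adjusted p = 0.470). For miR-29c-5p it was -0.057 ± 0.048 (limma adjusted p = 0.452), with 9 arrays at the floor. With quantile normalization the slopes of miR-29a-3p and miR-29c-3p turned to -0.020 and -0.039, the second past the threshold (limma adjusted p = 0.0225), so their direction depends on the scaling.

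Among the 339 slopes, counted from the highest, miR-29a-3p ranked 75, miR-29b-3p 97, miR-29c-3p 113 and miR-29c-5p 266. The members' median slope was 0.028, beside -0.014 for all tested miRNAs. A slope above 0 was found for 3 of 4 members and 43.1% of all, before the turn of sign under quantile normalization given above.

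**Figure D2:**
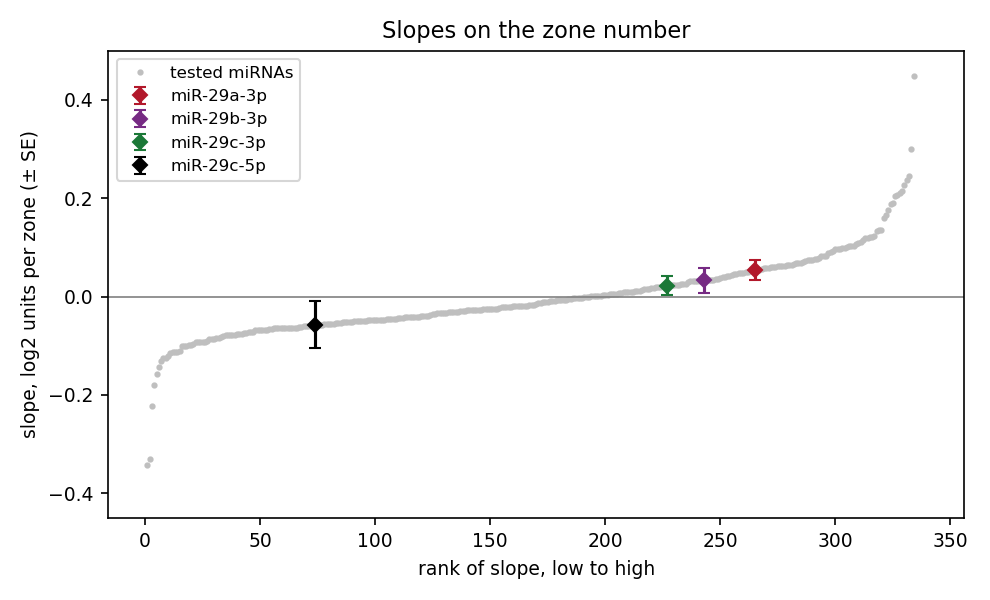
Slope in log2 units per zone (vertical axis) of the tested miRNAs in grey, ranked low to high (horizontal axis), with the 4 members as diamonds with their SE. The 3p strands lie above 0 and miR-29c-5p below it, while with quantile normalization miR-29a-3p and miR-29c-3p turn below 0; 5 miRNAs lie outside the vertical axis.

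The periportal zones (5 to 8) were next set against the pericentral zones (1 to 4). miR-29a-3p averaged 9.55 ± 0.15 log2 units in zones 5 to 8 and 9.28 ± 0.23 in zones 1 to 4 (SD, n = 12 arrays each), and the arrays overlapped. The difference was 0.27 ± 0.093 (SE), or 1.21-fold, with a limma adjusted p = 0.0560, and 0.0215 with the mouse as a block. It was 0.17 ± 0.13 for miR-29b-3p (limma adjusted p = 0.442), 0.11 ± 0.097 for miR-29c-3p (0.519) and -0.24 ± 0.23 for miR-29c-5p (0.589). With quantile normalization it was -0.058 for miR-29a-3p and -0.19 for miR-29c-3p, which then passed (limma adjusted p = 0.0268). No member was called without the block, against 16.2% of all miRNAs, and 1 of 4 with it, against 28%. Within zones 5 to 8 the slopes of miR-29a-3p, miR-29b-3p and miR-29c-3p were 0.079, 0.085 and 0.040, against -0.057, -0.078 and -0.032 within zones 1 to 4, none of them past the threshold. Over all tested miRNAs these slopes called 0 within zones 5 to 8 and 7 within zones 1 to 4. With the slide row and the mouse as terms, the slope of miR-29a-3p was 0.011 ± 0.036 (limma adjusted p = 0.894). That fit called 0 of the 339 tested miRNAs, against 105 with the mouse alone as a term. Because each slide row is 1 side of the lobule, that fit takes the slope from zones within a row alone. It cannot separate a step between the sides from the row for any miRNA.

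At the ends of the axis the members did not pass the test. Zone 8 minus zone 1 was 0.28 ± 0.19 log2 units (SE) for miR-29a-3p (limma adjusted p = 0.487) and 0.13 ± 0.25 for miR-29b-3p (0.859). It was 0.083 ± 0.19 for miR-29c-3p (limma adjusted p = 0.910) and -0.62 ± 0.47 for miR-29c-5p (0.534). The signals of miR-29b-3p and miR-29c-3p were lower in zone 8 than in zone 1 in mice 1 and 3, and without mouse 2 the differences were -0.15 and -0.16. With quantile normalization they turned to -0.16 for miR-29a-3p and -0.20 for miR-29c-3p. Across all miRNAs 5.31% were called. The moderated F test over the 8 zones called 0 of 4 members, with F from 0.395 to 1.71, against 5.31% of all, and 0 of 4 with the block, against 9.14%.

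The mice differed in miR-29b-3p. Mean log2 signals of miR-29b-3p in zones 5 to 8 and in zones 1 to 4 were 7.95 and 7.77 in mouse 1. They were 7.87 and 7.36 in mouse 2, and 7.95 and 8.13 in mouse 3. With zone in the model the F test over mice gave 6.70 for miR-29b-3p (limma adjusted p = 0.0162), and 1 of 4 members was called against 54.3% of all miRNAs. Mouse 3 minus mouse 2 was 0.43 ± 0.12 (SE), or 1.35-fold (limma adjusted p = 0.00793), in a contrast that called 39.2% of all. Within zones 5 to 8 mouse 3 minus mouse 2 was 0.087 (limma adjusted p = 0.568), and within zones 1 to 4 it was 0.77 (0.00260). These contrasts called 28.6% and 28.3% of all miRNAs. For the other members F was 2.48 for miR-29a-3p (limma adjusted p = 0.159), 1.70 for miR-29c-3p (0.264) and 2.08 for miR-29c-5p (0.209). These calls depend on the scaling. Without it all of these 3 passed (6.81, 5.11 and 4.25), in a test that then called 76.7% of all miRNAs. With the summed signal miR-29a-3p and miR-29c-3p did (10.1 and 10.5), against 67.3% of all. Quantile normalization called miR-29b-3p alone of the members, against 56.9% of all.

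**Figure D3:**
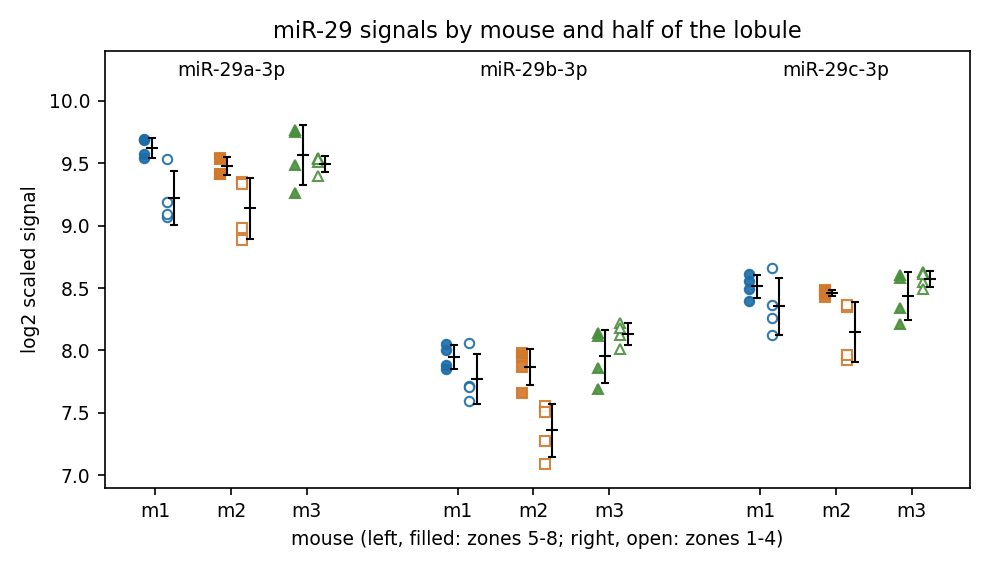
Log2 scaled signal (vertical axis) of the 3p strands by mouse (horizontal axis), with zones 5 to 8 as filled symbols on the left and zones 1 to 4 as open symbols on the right; black bars are the mean ± SD of 4 arrays. The filled symbols of miR-29b-3p lie at like heights in the 3 mice, while its open symbols lie lowest in mouse 2 and highest in mouse 3.

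Slopes were also fitted in each mouse, a choice made after the data were seen. miR-29a-3p had slopes of 0.066, 0.067 and 0.030 log2 units per zone in mice 1, 2 and 3. miR-29b-3p had 0.019, 0.102 and -0.022, and miR-29c-3p had 0.017, 0.063 and -0.013. So the slope of miR-29a-3p was above 0 in 3 of 3 mice, and those of the other 3p strands in 2 of 3. The test of the difference in slope between mice called 0 of 4 members, with a limma adjusted p = 0.237 for miR-29b-3p, against 0.885% of all miRNAs.

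The signals of 2 members on the same array were then set against each other, in 6 pairs. A factor common to the array cancels in such a ratio only where both signals scale with it. On the 9 arrays where miR-29c-5p was at the floor it does not cancel. On the 15 arrays with detection the deposited signal of miR-29c-5p was 2.12 to 3.07, near its detection limit. Whether the factor cancels there was not tested. The miR-29a-3p signal relative to miR-29c-3p rose toward the portal side by 0.032 log2 units per zone on average (permutation p = 9.0e-05 with zones permuted within mice, 0.00054 adjusted over 6 pairs). By mouse the slope was 0.048, 0.0044 and 0.043 in mice 1, 2 and 3, so mouse 2 was nearly flat. Zones were permuted within these 3 mice, so p measures scatter among their arrays and not the spread between animals. In mouse 1 the ratio was 1.83, 1.92, 1.78, 1.77, 2.07, 2.12, 2.19 and 2.26 in zones 1 to 8. In mouse 2 it was 2.08, 2.00, 1.96, 1.89, 1.98, 1.95, 2.09 and 2.09. In mouse 3 it was 1.89, 1.95, 1.89, 1.88, 2.07, 2.21, 2.20 and 2.28. Zones 5 to 8 lay wholly above zones 1 to 4 in mice 1 and 3, and overlapped them in mouse 2. The same was true of miR-29a-3p over miR-29b-3p, while the remaining pairs overlapped in every mouse. Ratios of other miRNAs were not computed. How common such a slope or such a separation is among all pairs is therefore not known. Since probes differ in brightness, the ratio shows unequal change and not which strand is more abundant.

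Zones 5 to 8 minus zones 1 to 4 of this ratio was 0.16 ± 0.11 log2 units (SD over 3 mice), or 1.12-fold, with 0.24, 0.030 and 0.20 in mice 1, 2 and 3. Within zones 5 to 8, which share a slide row, the slope was 0.039 (permutation p adjusted over 6 pairs = 0.00723). Within zones 1 to 4 it was -0.025 (permutation p adjusted over 6 pairs = 0.121). Without mouse 1 the slope was 0.024 and without mouse 3 0.026 (adjusted permutation p = 0.0573 and 0.0872), so its call was lost without either of them. With quantile normalization the slope was 0.018 (adjusted permutation p = 0.230). The difference between zones 5 to 8 and zones 1 to 4 passed (adjusted permutation p = 0.00048). Without mice 1, 2 and 3 in turn its adjusted permutation p was 0.0490, 0.0011 and 0.0466, so it stayed just under the threshold without mouse 1 or 3. It was not tested with quantile normalization.

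**Figure D4:**
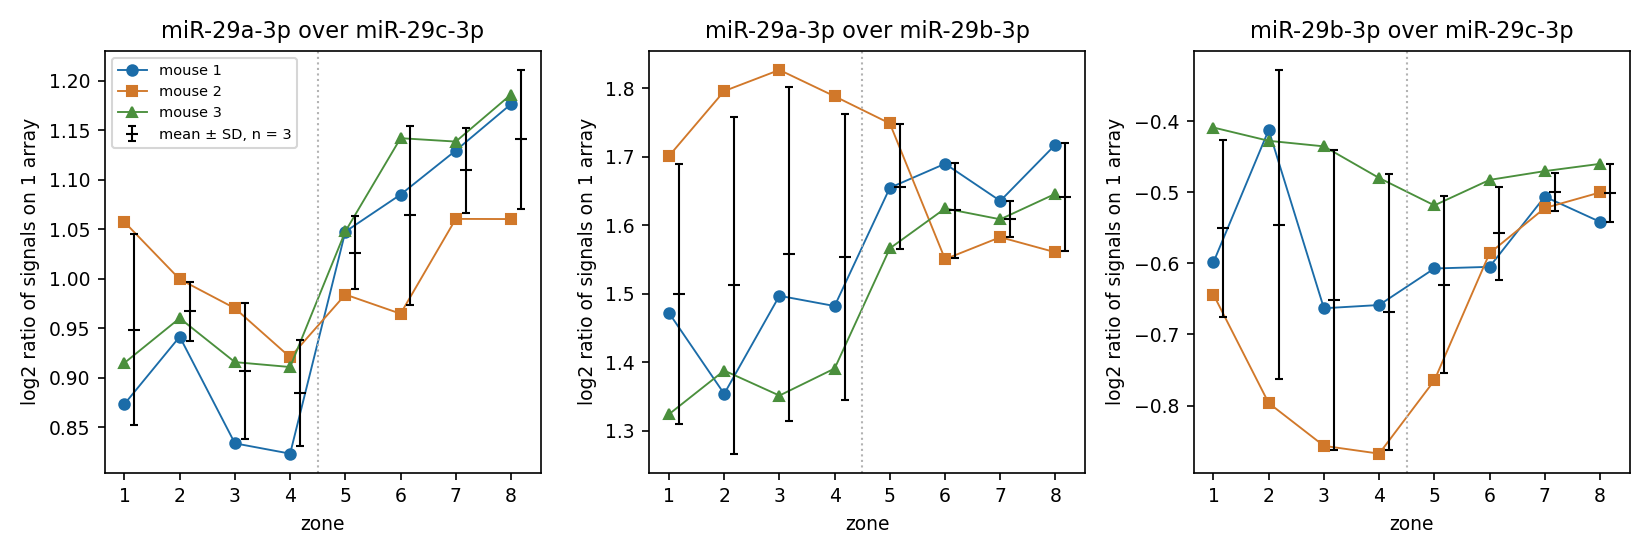
Log2 ratio of 2 members' signals on the same array (vertical axis) in zones 1 to 8 (horizontal axis), with 1 line per mouse and black bars for the mean ± SD of 3 mice. The ratio of miR-29a-3p to miR-29c-3p climbs across zones 5 to 8, and mouse 2 runs against the other two in the ratio of miR-29a-3p to miR-29b-3p.

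The other 3p pairs did not pass over the whole axis at this scaling. With quantile normalization miR-29b-3p over miR-29c-3p passed (0.058, adjusted permutation p = 0.00486) and the slope of miR-29a-3p over miR-29b-3p turned to -0.040. The slope of miR-29a-3p over miR-29b-3p was 0.021 (adjusted permutation p = 0.0713), with 0.046, -0.035 and 0.052 in mice 1, 2 and 3; without mouse 2 it was 0.049 (adjusted permutation p = 6.0e-05). The slope of miR-29b-3p over miR-29c-3p was 0.011 (adjusted permutation p = 0.243). Within zones 5 to 8 it was 0.045 (adjusted permutation p = 0.00723), and within zones 1 to 4 -0.046 (0.121). Against miR-29c-5p, the opposite strand of its own hairpin, miR-29c-3p had a slope of 0.080 (adjusted permutation p = 0.0713). On the 15 arrays where both strands were detected it was 0.049 (adjusted permutation p = 0.00236). miR-29a-3p over miR-29c-5p had a slope of 0.11 (adjusted permutation p = 0.0401), with 9 arrays at the floor. That call was lost without mouse 1 (0.091, adjusted permutation p = 0.115), without mouse 3 (0.12, 0.147) and with quantile normalization (0.068, 0.188), and on the 15 arrays with both detected the slope was 0.083 (0.00078). miR-29b-3p over miR-29c-5p had 0.090 (adjusted permutation p = 0.0713), and passed on those 15 arrays (0.059, 0.0126) and with quantile normalization (0.11, 0.0209). Since miR-29c-5p was near its detection limit on those 15 arrays, its ratios there may follow array brightness, which was not tested.

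The 3p strands varied together except under quantile normalization. With mouse means removed, Pearson's r over 24 arrays was 0.850 between miR-29a-3p and miR-29b-3p, 0.881 between miR-29a-3p and miR-29c-3p, and 0.909 between miR-29b-3p and miR-29c-3p. Without scaling, when array brightness is still in the signals, the same pairs had r = 0.935, 0.951 and 0.960. With quantile normalization they had r = -0.30, 0.098 and 0.056. miR-29c-3p and miR-29c-5p, from 1 hairpin, had r = 0.494, and 0.615 with quantile normalization. Arrays of a mouse share a slide, and all share the scaling, so these are descriptions. The SD of miR-29c-3p over the 24 arrays was 0.199 log2 units, rank 19 from the smallest among the 198 miRNAs detected on all arrays, whose median was 0.337. It was 0.237 for miR-29a-3p and 0.287 for miR-29b-3p.

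By the same measure the miRNA most like miR-29a-3p was miR-30e-5p (r = 0.958), followed by let-7g-5p (0.905), miR-30b-5p (0.894), miR-29c-3p (0.881) and miR-193a-3p (0.878). Most like miR-29b-3p were miR-193a-3p (r = 0.910), miR-29c-3p (0.909), miR-26b-5p (0.868), miR-194-5p (0.853) and miR-192-5p (0.852). Most like miR-29c-3p were miR-29b-3p (r = 0.909), miR-194-5p (0.895), miR-29a-3p (0.881), miR-192-5p (0.850) and miR-106b-5p (0.838). The highest r for miR-29c-5p was 0.629, with miR-483-3p. Without scaling 5, 4 and 4 of these 5 remained for miR-29a-3p, miR-29b-3p and miR-29c-3p. With quantile normalization 0 of these 5 remained for each 3p strand, so the likeness depends on whether that step is used.

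Other miRNAs known for the roles of the family give its surroundings. Their lists were chosen with earlier results of these data known and share members such as miR-122-5p, so the counts are descriptions. Of 18 miRNAs linked to liver fibrosis, 10 were tested, 4 rose toward the portal side and 0 fell, with a median slope of 0.040; of all tested miRNAs 10.3% rose and 6.49% fell. Among them miR-21a-5p, known from fibrosis and growth, had a slope of 0.167 (limma adjusted p = 0.00119), and miR-122-5p, the main hepatocyte miRNA, one of 0.103 (0.000159). The slope of miR-30c-5p was 0.074 (limma adjusted p = 0.0196). These are named as the first in the list as written, and other tested miRNAs of the list had slopes below 0. Of 8 miRNAs other than miR-29 known to target DNA methyltransferases, 6 were tested, 2 rose and 1 fell. miR-148a-3p had a slope of 0.097 (limma adjusted p = 0.00358), while those of miR-148b-3p and miR-152-3p were 0.068 (0.187) and -0.031 (0.331). Of 12 miRNAs of insulin and glucose metabolism, 10 were tested, 4 rose and 1 fell. In that list miR-107-3p had a slope of -0.064 (limma adjusted p = 0.0206) and miR-103-3p of -0.021 (0.445), and miR-802-5p, known to impair insulin signalling in liver, was seen on all 12 periportal arrays (zones 5 to 8), against 0 of 12 pericentral ones.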

How the data were processed

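Total RNA was labelled with Cy3 and hybridised to 1-colour Agilent mouse miRNA arrays, 24 in all, per the labels' protocols. Each deposited file gives a summarised intensity per miRNA, its error and a detection call, per the file headers; the submitters' processing notes name Agilent Feature Extraction, and its version is not given in the sources used here. In the deposited files an undetected miRNA has intensity 0.1, and 21 control rows were left out. Scaling set the 75th percentile across the 198 miRNAs that every array detected to its mean over arrays. The deposited intensities were first scaled, then raised to a floor of 1.12 where lower, and log2 was taken last. The 339 miRNAs detected on at least 6 arrays were tested with limma 3.58.1 in R 4.3.3 (lmFit, eBayes, two-sided, Benjamini-Hochberg over all 339, threshold 0.05), without a block in the main design. Ratios were tested with 100000 permutations of zones within mice in Python 3.11.15, two-sided. Arrays with the same mouse number come from the same animal, so the numbers pair the samples. Deviations from zone means had a median correlation of 0.610 within a mouse, with 0.254 the lowest, and of -0.394 between mice. Removing the means of 3 mice by itself lowers the value between mice. Each mouse filled 1 slide, so these correlations cannot tell animal from slide. No 2 arrays held identical values. The number of arrays limits the precision. The scripts were tested on simulated data.

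The members and lists were chosen with earlier results of these data known. Named are the 4 members, the other strands of their hairpins, the 5 miRNAs with the highest correlation to a member (only the highest for miR-29c-5p) and the first 3 of each list. Alternatives were the block, scaling, detection filter, floor, variance moderation, slide row, each side of the lobule alone, and leaving out mice or zones. Chosen after seeing the data were the slopes per mouse, the ratios and mouse differences within zones 1 to 4 or 5 to 8, and the difference of ratios between these zones.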

Additional observations from a re-analysis of the deposited data

How the results depend on the processing

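Of 334 values under the alternatives run, 278 kept their direction and their side of the threshold, 20 reversed, 23 passed the threshold anew and 13 no longer passed it. With the replicate block miR-29a-3p passed for the slope (0.054, limma adjusted p = 0.0273) and for zones 5 to 8 minus zones 1 to 4 (0.27, 0.0215); the block changed no other call of a member. The slope of miR-29a-3p also passed with only miRNAs detected on all 24 arrays (0.054, limma adjusted p = 0.0408), with trend and robust moderation (0.0430), with scaling to the summed signal (0.078, 0.0203), as the mean of 1 slope per mouse (0.0289), without zone 1 (0.071, 0.0376) and without zone 4 (0.051, 0.0439). Its difference between those zones (0.27) passed with the all-array filter (limma adjusted p = 0.0368), the filter on at least 1 array (0.0490) and trend and robust moderation (0.0324). With quantile normalization the slopes were -0.020 for miR-29a-3p (limma adjusted p = 0.373) and -0.039 for miR-29c-3p (0.0225), zone 8 minus zone 1 was -0.16 and -0.20, and zones 5 to 8 minus zones 1 to 4 was -0.058 and -0.19 (0.0268 for the second). Ratio slopes then were -0.040 for miR-29a-3p over miR-29b-3p, 0.018 for miR-29a-3p over miR-29c-3p and 0.068 for miR-29a-3p over miR-29c-5p (both calls lost, adjusted permutation p = 0.230 and 0.188), 0.058 for miR-29b-3p over miR-29c-3p (adjusted permutation p = 0.00486) and 0.11 for miR-29b-3p over miR-29c-5p (0.0209). The cause of these turns was not tested. The F test over mice was 6.81, 5.11 and 4.25 without scaling for miR-29a-3p, miR-29c-3p and miR-29c-5p, and 10.1 and 10.5 with the summed signal for miR-29a-3p and miR-29c-3p, all past the threshold. Of all miRNAs 76.7% were called without scaling and 67.3% with the summed signal. For miR-29b-3p the F test over mice was 0.474 within zones 5 to 8, where it called 36.9% of all.

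Within zones 5 to 8 the slopes of miR-29a-3p, miR-29b-3p and miR-29c-3p were 0.079, 0.085 and 0.040, against -0.057, -0.078 and -0.032 within zones 1 to 4, none past the threshold. Within zones 5 to 8 ratio slopes were -0.0058 for miR-29a-3p over miR-29b-3p, 0.12 for miR-29a-3p over miR-29c-5p and 0.045 for miR-29b-3p over miR-29c-3p. Within zones 1 to 4 they were -0.025 for miR-29a-3p over miR-29c-3p, 0.0068 for miR-29a-3p over miR-29c-5p, -0.046 for miR-29b-3p over miR-29c-3p and -0.014 for miR-29b-3p over miR-29c-5p. On arrays with both members detected, miR-29b-3p over miR-29c-5p had 0.059 and miR-29c-3p over miR-29c-5p 0.049, both past the threshold.

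Leaving out each mouse gave -0.0015 to 0.061 for the slope of miR-29b-3p, -0.15 to 0.30 and -0.16 to 0.26 for zone 8 minus zone 1 of miR-29b-3p and miR-29c-3p, and -0.00039 to 0.34 for zones 5 to 8 minus zones 1 to 4 of miR-29b-3p, each lowest without mouse 2. Ratio slopes ranged from 0.0057 to 0.049 for miR-29a-3p over miR-29b-3p, 0.024 to 0.045 for miR-29a-3p over miR-29c-3p, 0.091 to 0.12 for miR-29a-3p over miR-29c-5p and -0.0035 to 0.021 for miR-29b-3p over miR-29c-3p. The same difference of the ratios ranged from 0.028 to 0.24 for miR-29a-3p over miR-29b-3p, 0.40 to 0.59 for miR-29a-3p over miR-29c-5p and -0.013 to 0.11 for miR-29b-3p over miR-29c-3p. For miR-29a-3p over miR-29c-3p it ranged from 0.12 to 0.22.

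Over all tested miRNAs the slope called 57, and 105 with the block, 110 with 1 slope per mouse, 37 without mouse 3, 37 without zone 8, 7 within zones 1 to 4, 0 within zones 5 to 8 and 0 with the slide row as a term; the last 2 by limma had 43 and 37 miRNAs at an unadjusted p under 0.05. Zones 5 to 8 minus zones 1 to 4 called 55, and 95 with the block, 29 without scaling and 31 without mouse 1. Zone 8 minus zone 1 called 18, and 33 with the block, 11 without mouse 3 and 11 of 198 with the all-array filter (5.56%, against 5.31%). The F test over zones called 18, and 31 with the block, 9 without scaling, 11 without mouse 1 and 10 without mouse 3. With the all-array filter the F test over mice called 108 of 198 in place of 184 of 339 (54.5% against 54.3%), and mouse 3 minus mouse 2 called 79 in place of 133 (39.9% against 39.2%). Of the calls by slope 35 rose and 22 fell, against 36 and 3 without scaling, 44 and 6 with the summed signal and 31 and 31 with quantile normalization. The low signal of miR-29c-5p limits what its values show.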
